A study of Mus musculus with 34 samples.

Results

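The Polycomb genes described here are 10 genes of the 2 Polycomb repressive complexes, taken from a mouse B cell RNA-seq table by their symbols: Ezh2, Ezh1, Eed, Suz12, Phf19, Ring1, Rnf2, Bmi1, Cbx7 and Cbx8. Each symbol stood on 1 of the 23812 gene rows, and all 10 were among the 10863 genes tested, which had a level of at least 1 in at least 2 samples. The genes were chosen by name, with earlier results of these data known. RNA was measured in 2 samples of activated B cells (aB) and 2 samples of resting B cells (rB). Both groups were CD43- splenic B cells of C56BL/6J mice (the spelling of the labels) aged 6 to 8 weeks, with no genetic change named. The aB cells had been kept for 3 days with lipopolysaccharide (LPS, an outer membrane molecule of bacteria to which B cells respond) at 10 ug/ml. The rB samples were grouped by their titles and source names, because their growth and treatment fields repeat the LPS culture. FAIRE-seq (open chromatin), STARR-seq (a reporter assay in which an active fragment drives its own transcription), H3K27ac and H3K4me3 ChIP-seq and Hi-C (contacts between genome regions) were analysed in activated cells only.

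Polycomb repressive complex 2 (PRC2) methylates lysine 27 of histone H3 through EZH2 or its paralog EZH1, each of which needs EED and SUZ12 to work. Polycomb repressive complex 1 (PRC1) holds RING1 or RNF2, the paralogous ligases that ubiquitinate histone H2A, and in its canonical form a CBX protein that binds methylated lysine 27. EZH2 is known to be abundant in dividing B cells, germinal center B cells among them, while EZH1 is the form kept in many cells that do not divide.

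Between aB and rB cells, 3 of the 10 genes were higher (Ezh2, Suz12, Phf19) and 4 were lower (Ezh1, Ring1, Cbx7, Cbx8) at a Benjamini-Hochberg adjusted p under 0.05 in limma. The same rule called 28.2% of all tested genes higher and 26.2% lower in aB cells. The other 3 genes, Eed, Rnf2 and Bmi1, did not pass. With no filter on low values none of the 10 was called in limma (the 7 had adjusted p-values of 0.0574 to 0.157, and 3 higher and 4 lower at an unadjusted p under 0.05). With the 7128 rows at 0 in every sample left out of that fit, the same 7 were called. The median change of the 10 genes was -0.35 on the log2(FPKM + 1) scale, against 0.03 over all tested genes. In each of the 10 genes the 2 aB levels lay wholly above (4 genes) or wholly below (6 genes) the 2 rB levels. That was also so, above or below, for 41.5% and 39.1% of all tested genes. Levels are taken to be FPKM, a read density per length of transcript, although the table does not name its unit, and changes are aB minus rB on the log2(FPKM + 1) scale, which understates the change of low genes. Nothing in the labels says that the 2 samples of a group came from separate mice or cultures, so the p-values reflect no more than how far these samples spread, which may be technical. In bulk RNA, fewer cells of a type and less RNA per cell cannot be told apart.

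**Figure D1:**
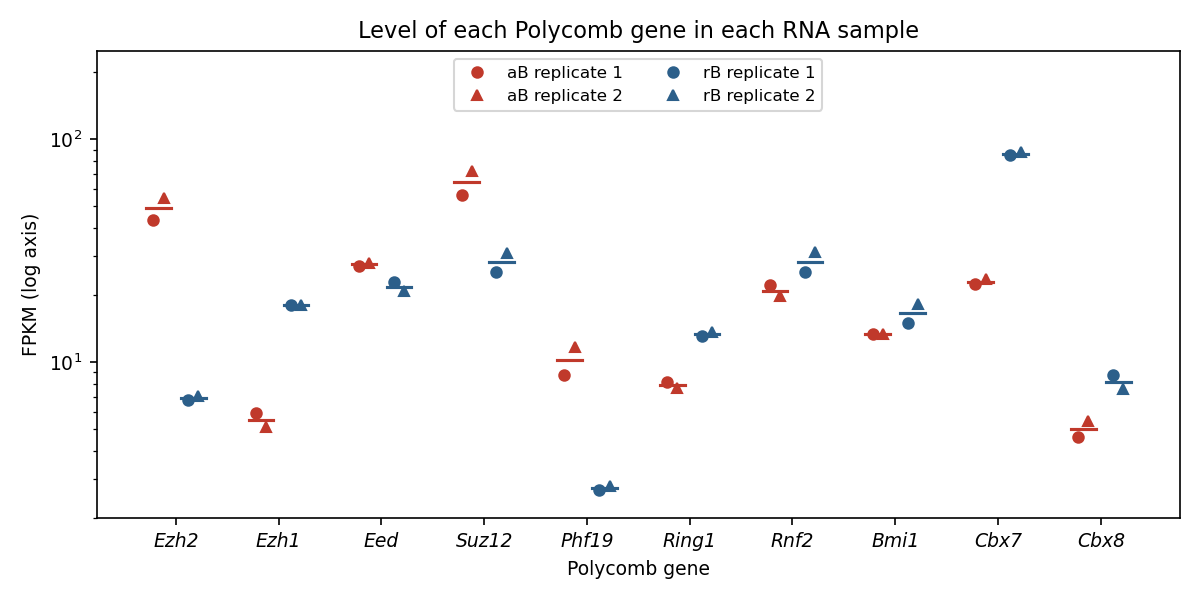
Level of the 10 Polycomb genes in FPKM (log axis) in the 2 aB samples (red, left of each pair) and the 2 rB samples (blue), with a circle for replicate 1, a triangle for replicate 2 and a line at the mean. Ezh2 and Ezh1 lie on opposite sides of each other in the groups, and Cbx7 has the highest rB level, at 85.0 and 87.8 FPKM.

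Ezh2, the methyltransferase of PRC2 (chr6:47480272-47545029, mm9), had 43.3 and 54.7 FPKM in aB cells, against 6.78 and 7.06 FPKM in rB cells. Both aB samples were far above both rB samples. The means were 49.0 ± 8.05 FPKM in aB cells and 6.92 ± 0.198 FPKM in rB cells (SD, n = 2 each), a ratio of 7.08. Its change was 2.65 ± 0.17 (SE), with a limma adjusted p of 8.55e-05, and 98.1% of all tested genes had a smaller (or more negative) change.

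Ezh1, the paralog with weaker methyltransferase activity (chr11:101052428-101087764, mm9), had 5.90 and 5.11 FPKM in aB cells, against 18.1 and 18.1 FPKM in rB cells. Here both aB samples were below both rB samples, the reverse of Ezh2. The change was -1.56 ± 0.15 (SE; limma adjusted p = 0.000319).

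The ratio of Ezh2 to Ezh1 was 7.34 and 10.7 in the aB samples, against 0.374 and 0.391 in the rB samples. Ezh2 made up 88.0% and 91.5% of the summed FPKM of both paralogs in aB cells, against 27.2% and 28.1% in rB cells. The more abundant transcript per length was therefore Ezh2 in both aB samples and Ezh1 in both rB samples. The sum of both was 49.2 and 59.8 FPKM in aB cells, against 24.9 and 25.1 FPKM in rB cells. On the log2 scale the ratio with 1 FPKM added to each gene differed by 4.21 between the groups, and an exact two-sided permutation test gave p = 0.333, the smallest that 2 against 2 samples can give.

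**Figure D2:**
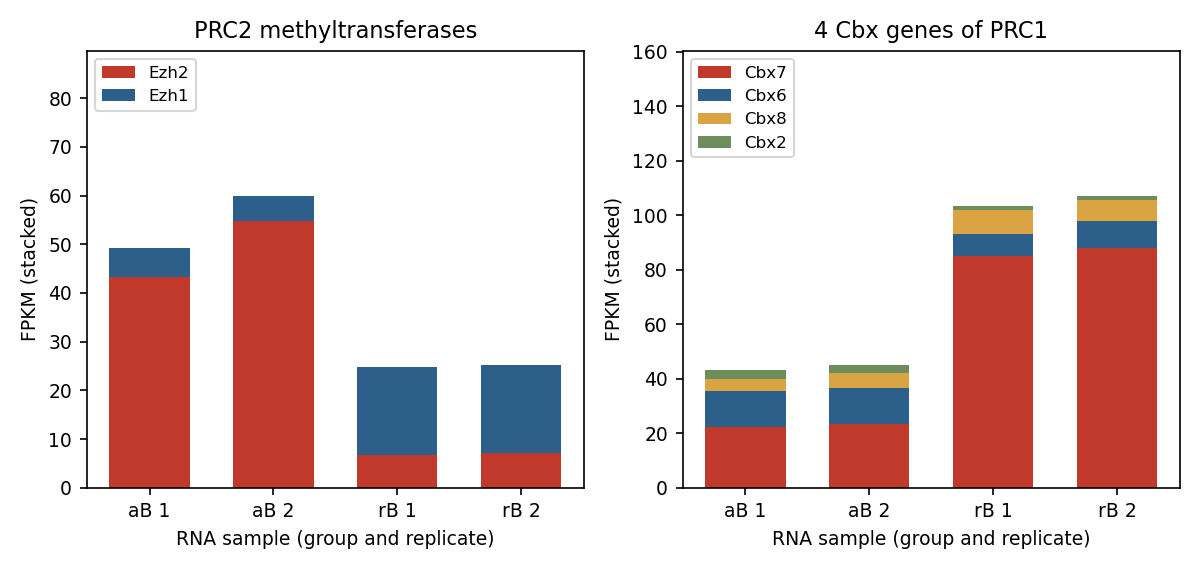
Stacked FPKM of Ezh2 and Ezh1 (left panel) and of Cbx7, Cbx6, Cbx8 and Cbx2 (right panel) in each RNA sample, aB samples first. Ezh2 fills 88.0% and 91.5% of the left bars in aB and 27.2% and 28.1% in rB, and Cbx7 fills 51.8% and 52.2% of the right bars in aB and 82.1% and 82.1% in rB.

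The other core subunits of PRC2 differed by less. Suz12, which holds the complex together (chr11:79806607-79847625, mm9), had 56.2 and 71.9 FPKM in aB cells, against 25.3 and 30.8 FPKM in rB cells, with no overlap. Its change was 1.16 ± 0.20 (SE; limma adjusted p = 0.00357). Eed, the subunit that binds trimethylated lysine 27 (chr7:97103163-97129486, mm9), had 26.9 and 28.0 FPKM in aB cells, against 22.8 and 20.9 FPKM in rB cells. The Eed difference of 0.32 had a 95% interval of -0.05 to 0.68 and an adjusted p of 0.119, so it did not pass the test. The ratio of Suz12 to Eed was 2.09 and 2.57 in aB cells, against 1.11 and 1.47 in rB cells, and the ratio of summed Ezh1 and Ezh2 to Eed was 1.83 and 2.14, against 1.09 and 1.2.

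Phf19, a Polycomb-like protein that helps to bring PRC2 to chromatin (chr2:34749274-34769496, mm9), had 8.74 and 11.7 FPKM in aB cells, against 2.67 and 2.78 FPKM in rB cells. Both aB samples exceeded both rB samples, by 1.58 ± 0.18 on the log2 scale (SE; limma adjusted p = 0.000672). Its rB level was low, with 16.4% of the tested genes below it.

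Among 8 further PRC2 partners, all tested, 4 rose, 3 fell and 1 did not pass, with a median change of 0.50. Of all tested genes 28.2% were called higher and 26.2% lower. Phf1, a paralog of Phf19, had 4.79 and 4.17 FPKM in aB cells, against 38.5 and 48.0 FPKM in rB cells, and changed by -3.01. The Polycomb-like paralogs thus moved in opposite directions in these samples, Phf19 up and Phf1 down. The paralog Mtf2 (0.19) did not pass. Jarid2 (-1.01) and Lcor (-0.68), which mark different forms of PRC2, fell as well. The risers were Epop, listed as E130012A19Rik (1.99), the histone chaperones Rbbp7 (1.53) and Rbbp4 (0.81), and the zinc-finger subunit Aebp2 (0.97). Rbbp4 lost its call without rB replicate 1 (0.097), Lcor without that sample (0.199) or aB replicate 1 (0.0744). Rbbp4 and Rbbp7 are close paralogs, whose values are uncertain where reads fit both.

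Of the paralogous ligases of PRC1, Ring1 (chr17:34157736-34161625, mm9) had 8.13 and 7.67 FPKM in aB cells, against 13.1 and 13.7 FPKM in rB cells. All aB values were below the rB values, by -0.69 ± 0.14 (SE; limma adjusted p = 0.00693). The call of Ring1 was lost when either rB sample was left out (adjusted p 0.0531 and 0.0638). Rnf2 (chr1:153316535-153347953, mm9), the ligase known to carry most of the H2A ubiquitination in mouse cells, had 22.1 and 19.8 FPKM in aB cells, against 25.3 and 31.2 FPKM in rB cells. The Rnf2 difference of -0.41 (95% interval -0.82 to 0.004) had an adjusted p of 0.0849. It passed as lower when the samples were scaled to the same median (adjusted p = 0.0425) or quantile-normalized (adjusted p = 0.0209). Rnf2 exceeded Ring1 in each sample, by 2.72 and 2.58 times in aB cells, against 1.94 and 2.28 times in rB cells.

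Bmi1, the PCGF protein that pairs with these ligases (chr2:18598644-18608256, mm9), had 13.4 and 13.3 FPKM in aB cells, against 15.1 and 18.2 FPKM in rB cells. The difference of -0.29 (95% interval -0.67 to 0.08) did not pass, with an adjusted p of 0.156, and reached 0.0476 under quantile normalization. Of the summed FPKM of Bmi1 and the other Pcgf genes, Bmi1 took 29.2% in each aB sample, against 40.3% and 43.2% in the rB samples. Its paralog Pcgf5, rose by 1.25, with 13.2 and 11.5 FPKM in aB cells, against 4.47 and 4.75 FPKM in rB cells.

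Cbx7, a reader of methylated lysine 27 (chr15:79746236-79763076, mm9), had 22.4 and 23.5 FPKM in aB cells, against 85.0 and 87.8 FPKM in rB cells. The groups were far apart, and 96.2% of the tested genes lay below the rB mean of Cbx7, against 74.5% below its aB mean. The change was -1.87 ± 0.17 (SE; limma adjusted p = 0.00025). Cbx8 (chr11:118899749-118902227, mm9), another reader, had 4.59 and 5.42 FPKM in aB cells, against 8.76 and 7.57 FPKM in rB cells. Cbx8 fell by 0.61 ± 0.16 on the log2 scale (SE; limma adjusted p = 0.0189), a call that was lost without rB replicate 1 (0.167) or rB replicate 2 (0.0705).

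The proportions of 4 Cbx genes of canonical PRC1 differed as well. Cbx7 made up 51.8% and 52.2% of the summed FPKM of Cbx2, Cbx6, Cbx7 and Cbx8 in aB cells, against 82.1% and 82.1% in rB cells. Cbx6 took 30.2% and 28.9% in aB cells, against 8.0% and 9.41% in rB cells. Cbx2 took 7.42% and 6.85% in aB cells, against 1.45% and 1.37% in rB cells. Cbx8 took 10.6% and 12% in aB cells, against 8.46% and 7.08% in rB cells, although its own level was lower in aB cells. Cbx7 was the most abundant of the 4 in every sample. Its mean share differed by -30.1 percentage points between the groups (exact two-sided permutation p = 0.333, the smallest possible). The sum of the 4 genes was 43.2 and 45.1 FPKM in aB cells, against 103.6 and 106.9 FPKM in rB cells. By gene, Cbx2 (0.74) and Cbx6 (0.47) rose. The Cbx2 call was lost without rB replicate 1 or 2 (0.0666 and 0.0679), and that of Cbx6 without any 1 of the 4 samples (0.0699 to 0.289).

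Of 22 further PRC1 subunits, 19 passed the filter on low values: 7 rose, 5 fell and 7 did not pass, with a median change of 0.13. The shares over all tested genes were 28.2% higher and 26.2% lower. Besides Pcgf5 and Cbx2, the risers included E2f6 (1.10), Yaf2 (0.87) and Bcorl1 (0.62). Bcorl1 was under 1 FPKM in both rB samples and passed the filter only through the aB samples. The Bcorl1 call was lost without rB replicate 1 (0.0694) or 2 (0.175). The 3 polyhomeotic genes, which encode the polymerising subunit of canonical PRC1, all fell: Phc1 (-0.74), Phc2 (-0.65) and Phc3 (-0.42). Mga (-0.57) and Rybp (-0.51) fell too. E2f6, Yaf2, Bcorl1, Mga and Rybp are all subunits of variant PRC1, whose genes thus went both ways, and the paralogs Yaf2 and Rybp moved in opposite directions. Without rB replicate 1 the calls of Phc1 (0.0615), Phc2 (0.0769), Phc3 (0.273), Mga (0.17), Rybp (0.108) and Yaf2 (0.071) were lost, and all but that of Yaf2 were lost without rB replicate 2 too (0.0558 to 0.275). Rybp also lost its call without either aB sample (0.0612 and 0.0604), and Phc3 without aB replicate 2 (0.115).

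**Figure D3:**
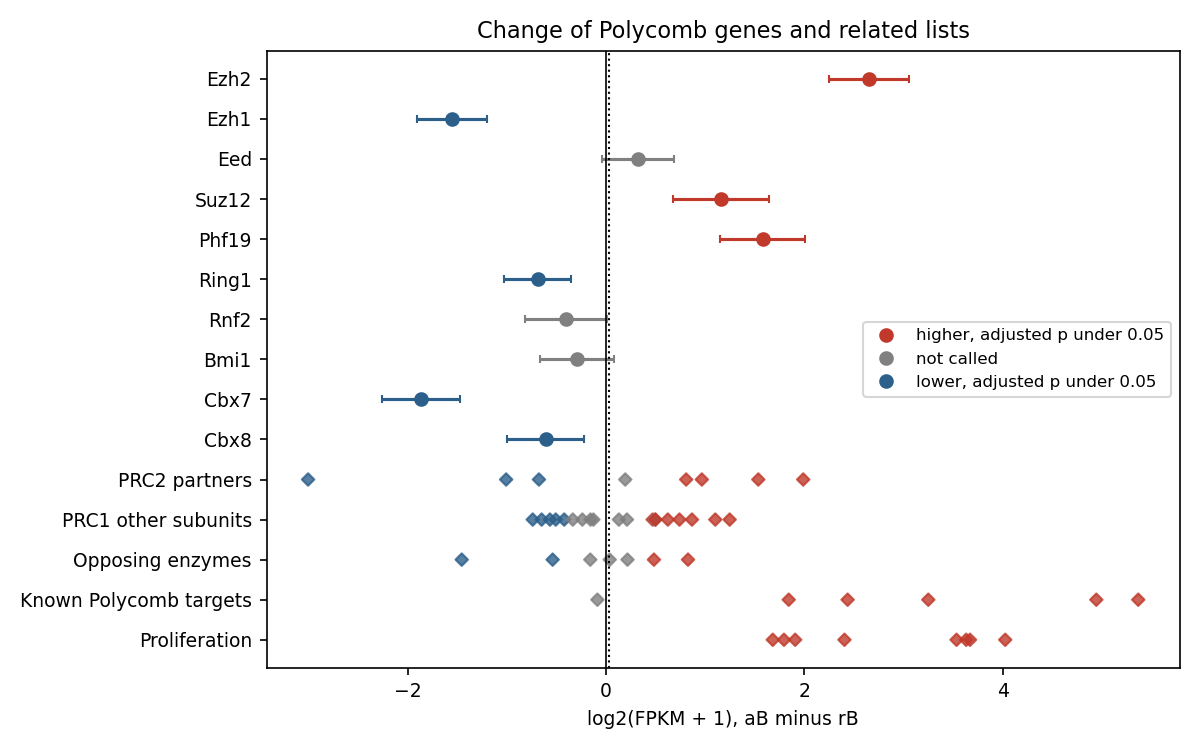
Change (aB minus rB, log2(FPKM + 1)) of the 10 Polycomb genes with 95% intervals, and of the tested genes of 5 related lists as diamonds, coloured by the limma call (red higher, blue lower, grey not called). The solid line marks no change and the dotted line the median of all tested genes (0.03), and all 8 proliferation genes lie to the right of it.

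Of 7 enzymes that remove Polycomb marks and their cofactors, 2 rose, 2 fell and 3 did not pass. These counts are near the shares of all tested genes, 28.2% higher and 26.2% lower. The H3K27 demethylase Kdm6b fell by 1.46 on the log2 scale, with 2.58 and 2.12 FPKM in aB cells, against 9.45 and 7.06 FPKM in rB cells. Mysm1, an H2A deubiquitinase, changed by -0.54, while Asxl1 (0.83), a cofactor of such an enzyme, and the deubiquitinase Usp16 (0.48) were higher. The demethylase Kdm6a (-0.16) did not pass. The calls of Mysm1 and Usp16 were lost without rB replicate 1 (0.179 and 0.222) or rB replicate 2 (0.0697 and 0.135), Usp16 also without aB replicate 2 (0.111), and that of Asxl1 without rB replicate 2 (0.0629).

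Of 12 genes listed as known Polycomb targets, a status not tested in these cells, 6 passed the filter. Among these 6 genes, 5 were called higher and 1 was not called (28.2% of all tested genes were called higher). Cdkn2a and Cdkn2b were under 1 FPKM in both rB samples and passed the filter only through the aB samples, which fixed their direction, so the count is a description and supports nothing about the list. Cdkn2a, the locus of the cell cycle inhibitors p16 and p19, had 48.8 and 44.4 FPKM in aB cells, against 0.150 and 0.152 FPKM in rB cells. The neighbouring inhibitor Cdkn2b had 7.24 and 6.67 FPKM in aB cells, against 0.373 and 0.572 FPKM in rB cells. Cdkn1a, which encodes the inhibitor p21, changed by 3.25, and the plasma cell regulators Prdm1 and Irf4 by 4.95 and 1.84. Hoxb4 (-0.09) did not pass, and 5 other Hox genes and Cdkn1c were under the filter. Genes of the list that were low in all samples could not be tested.

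All 8 proliferation genes tested rose, against 28.2% of all tested genes, with a median change of 2.97. Their summed level was 422.9 and 718.2 FPKM in aB cells, against 67.5 and 96.2 FPKM in rB cells. The part of cell division in the Polycomb changes was not tested. The 5 B cell markers were present in all samples, with sums of 1969 and 1391 FPKM in aB cells, against 3123 and 3496 FPKM in rB cells, and 4 of the 5 were called lower. The rB samples also held transcripts of other cells: all 6 macrophage markers were lower in aB cells (sums of 0.288 and 0.503 FPKM in aB cells, against 384.9 and 420.7 FPKM in rB cells, with C1qa and C1qb at 0 in both aB samples). Erythroid markers (3 of 3 tested) summed to 11.7 and 4.35 FPKM in aB cells, against 410.2 and 2436 FPKM in rB cells. The 6 T cell markers (3 of 3 tested, Lck, Cd4 and Cd8a, lower) summed to 2.56 and 1.61 FPKM, against 22.1 and 30.1 FPKM. Cd3e, Cd3d and Cd3g, at 0 in both aB samples, were under the filter and not tested. They were also near 0 in rB replicate 1 (0.135, 0.0491 and 0.0668 FPKM). In rB replicate 2 they had 1.29, 1.05 and 1.5 FPKM. Of the NK cell markers 2 of 2 tested were lower (sums of 1.01 and 0.392 FPKM, against 6.12 and 11.7 FPKM), and no neutrophil marker passed the filter (0 and 0.212 FPKM, against 1.40 and 25.6 FPKM). Markers near 0 in aB cells passed the filter through the rB samples alone, which fixed their direction. Their part in the Polycomb levels was not tested.

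The genes whose 4 levels lay closest to those of Ezh2, by Euclidean distance on the log2(FPKM + 1) scale, were Ncapd2 (0.211), a condensin subunit, Stmn1 (0.314), a microtubule regulator, and Asf1b (0.332), a histone chaperone. For Ezh1 they were P2rx4 (0.131), a purinergic ion channel, Rara (0.196), a retinoic acid receptor, and Map3k14 (0.197), a kinase of the non-canonical NF-kB pathway. These are likenesses over 4 samples in 2 groups.

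The 250 bases before each gene start were read from RefSeq promoters (GRCm38.p6), which matched all 10 genes. They are shown for the 3 genes that were higher in aB cells and for the pair with the largest falls, Ezh1 and Cbx7. Each window is given on the strand of its gene. The capitals mark 8 letters of the E2F type (TTTCCCGC, TTTGGCGC, TTTGCCGC or TTTCGCGC, searched on both strands), a motif of genes that act in DNA replication.
Ezh2 (chr6:47595031-47595280, minus strand): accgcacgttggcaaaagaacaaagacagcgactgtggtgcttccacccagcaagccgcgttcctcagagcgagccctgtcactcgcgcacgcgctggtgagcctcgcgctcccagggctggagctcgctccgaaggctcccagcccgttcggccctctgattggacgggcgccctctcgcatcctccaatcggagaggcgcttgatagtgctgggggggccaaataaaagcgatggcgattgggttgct
Ezh2 across the start (chr6:47595010-47595037, minus strand): ggttgctgcgTTTGGCGCtcggtccggt
Suz12 (chr11:79992856-79993105, plus strand): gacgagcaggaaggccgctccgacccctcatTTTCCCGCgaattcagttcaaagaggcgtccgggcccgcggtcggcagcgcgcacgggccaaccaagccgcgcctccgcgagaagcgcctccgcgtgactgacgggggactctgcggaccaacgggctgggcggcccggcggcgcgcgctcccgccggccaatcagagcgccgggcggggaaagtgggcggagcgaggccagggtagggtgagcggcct
Phf19 (chr2:34913977-34914226, minus strand): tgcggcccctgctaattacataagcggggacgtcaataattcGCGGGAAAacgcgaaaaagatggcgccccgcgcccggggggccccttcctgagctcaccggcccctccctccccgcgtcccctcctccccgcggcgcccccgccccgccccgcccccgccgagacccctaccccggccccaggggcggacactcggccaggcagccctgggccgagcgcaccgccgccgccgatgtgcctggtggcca
Ezh1 (chr11:101226464-101226713, minus strand): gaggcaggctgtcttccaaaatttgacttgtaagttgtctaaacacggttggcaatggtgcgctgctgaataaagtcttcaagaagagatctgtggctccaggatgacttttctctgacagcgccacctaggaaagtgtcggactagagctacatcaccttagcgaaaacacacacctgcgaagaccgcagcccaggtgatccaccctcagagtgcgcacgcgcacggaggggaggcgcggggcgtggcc
Cbx7 (chr15:79932647-79932896, minus strand): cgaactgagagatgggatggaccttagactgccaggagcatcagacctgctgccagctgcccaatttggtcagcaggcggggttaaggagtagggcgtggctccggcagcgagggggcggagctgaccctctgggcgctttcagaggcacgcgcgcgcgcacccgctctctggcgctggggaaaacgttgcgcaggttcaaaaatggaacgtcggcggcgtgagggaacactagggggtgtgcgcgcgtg

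In windows of 300 bases (250 before and 50 from the start), the E2F letters stood at 3 of the 10 genes, and these were the 3 called higher: Suz12 (219 to 212 bases before the start), Phf19 (208 to 201 bases before it, as GCGGGAAA on the gene strand) and Ezh2 (3 to 10 bases past the start base). In the 250 bases before the start alone, which leave out the Ezh2 match, the letters stood at 2 of the 10 genes. They stood in 1.86% of all promoters and in 3.43% of those of tested genes. In the 300-base windows they stood in 2.26% of all 32851 promoters of that length and in 4.11% of those of tested genes. The shares were 6.31% for genes higher in aB cells and 2.61% for genes lower. The motifs were chosen with these sequences in view, so the match is a description and not a sign of binding. Letters of the NRF1 type, searched too, also stood at 3 of the 10 genes in the 300-base windows. These genes were Ezh2, called higher, and Ezh1 and Cbx7, called lower. The shares were 4.6% of all promoters and 10.8% of those of tested genes. E-box letters stood at 2 of the 10 genes (7.15% of all promoters, 10.4% of those of tested genes), none of them called higher. CRE letters stood at 1 gene (1.79% and 3.18%), not called higher. The CCAAT letters, searched on both strands, stood at 5 of the 10 genes in the same windows. The shares were 37.4% of all promoters and 38.6% of those of tested genes. Of the matches, 3 were in front of Ezh2. The share of G and C in the 250 bases ranged from 54.4% at Eed and 55.2% at Ezh1 to 75.2% at Phf19. All 10 genes were above the median of 52.4% over all promoters, Eed and Ezh1 only slightly. These windows are on another build than the peaks and were not placed against them.

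All 10 gene starts lay within 1 kb of a FAIRE peak, an H3K27ac peak and an H3K4me3 peak in aB cells. The same held for 87.2%, 85.0% and 88.4% of the 8745 tested genes with a known start, so the count of 10 is near the background. These lists came from activated cells, carry no score and have no replicates. The H3K27ac peak over the start was longest at Cbx7 (3289 bp) and Ezh2 (2715 bp), and shortest at Ezh1 (642 bp). The H3K4me3 peak over the start was longest at Ezh2 (3546 bp) and, as for H3K27ac, shortest at Ezh1 (1565 bp). Cbx7 had the longest H3K27ac peak at a start although its RNA was lower in aB cells.

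STARR peaks, which mark fragments with reporter activity, lay within 1 kb of the start in 5 of the 10 genes (Ezh2, Eed, Rnf2, Cbx7 and Cbx8), against 50.5% of tested genes. Ezh2 had 2 such peaks. The nearer spanned 224 bases before to 76 bases past the start and overlapped the FAIRE peak there, and the other, 1020 to 720 bases before the start, overlapped no FAIRE peak. At Cbx7 the peak spanned 275 before to 25 past, and at Cbx8 285 before to 15 past. The Eed peak ended 149 bases before the start. The Rnf2 peak lay 705 to 1004 bases into the gene and overlapped no FAIRE peak. Ezh1 was the only one of the 10 genes with no STARR peak in the gene or within 20 kb of it, while Cbx7 had 6 such peaks. Phf19 had 1, inside the gene at 8.84 kb from the start, Suz12 1 past its end, and Bmi1 and Ring1 2 each.

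**Figure D4:**
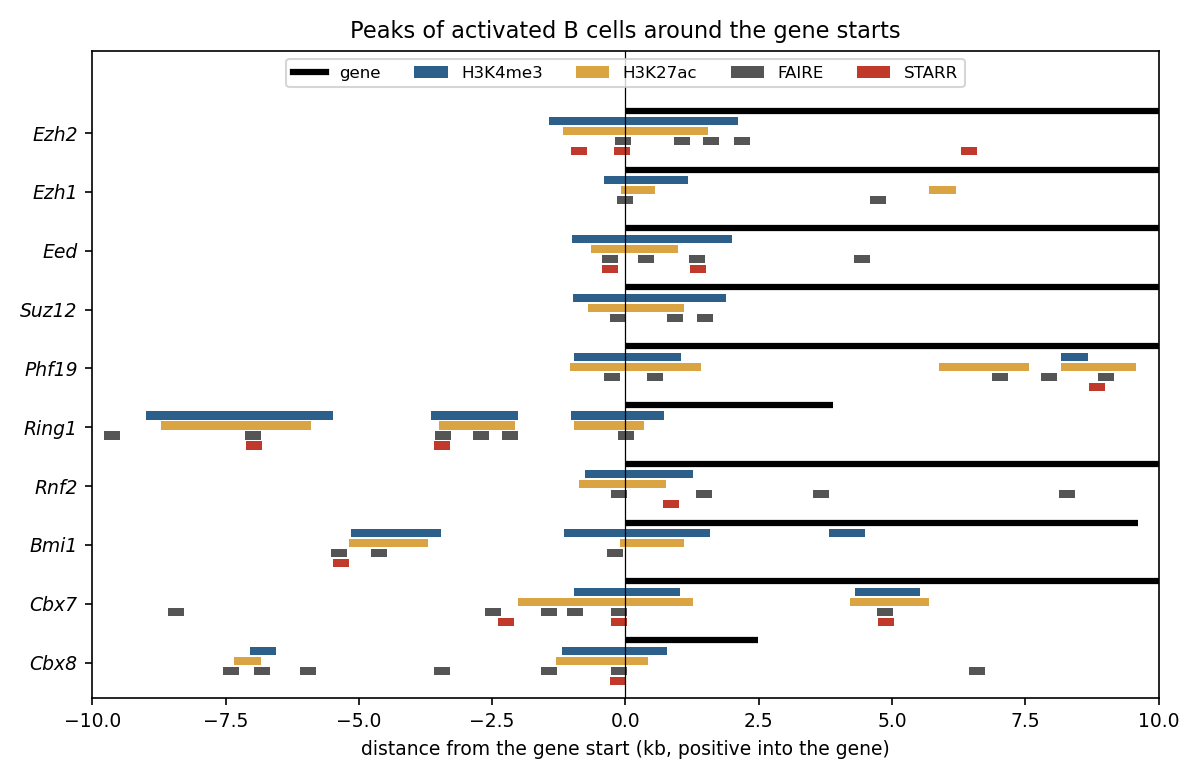
Peaks in activated B cells within 10 kb of each gene start (distance in kb, positive into the gene, genes from Ezh2 at the top to Cbx8), with the gene in black, H3K4me3 in blue, H3K27ac in gold, FAIRE in grey and STARR in red. All 10 starts carry both histone marks and have a FAIRE peak within 1 kb, and STARR peaks touch the start of Ezh2, Cbx7 and Cbx8.

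Hi-C contacts with an anchor in the gene were listed for 8 of the 10 Polycomb genes, against 79.7% of tested genes. The list pools the Hi-C runs of activated cells, can give 1 contact at several anchor sizes, and holds no resting cells. The median was 4 contacts for the 10 genes and 3 for tested genes. Cbx7 had 16, more than 97.7% of tested genes, Ring1 15, Eed 11 and Phf19 10. Cbx8 had 5, Ezh1 3, Ezh2 2 and Rnf2 2. Suz12 and Bmi1 had none in the gene, but 1 and 6 within 5 kb of their starts.

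Cbx7 was the only one of the 10 genes with a super-enhancer (a long H3K27ac domain) within 20 kb. It lay past the gene end at chr15:79721982-79733476 (mm9, 11495 bp), and the H3K27ac domain there was 12108 bp long, at rank 36 of 23938 by length. Of the 16 contacts of Cbx7, 6 joined the region of its start to anchors on this super-enhancer, at 31.1 to 41.5 kb from the start and with 6 to 94 reads each. Anchors of 1000, 2000 and 5000 bp overlap among these 6, so they are not 6 separate contacts. The super-enhancer held 2 of the STARR peaks near Cbx7, at 31.6 and 36.8 kb from its start. A further contact joined the gene, at the edge of its internal STARR peak (4.88 kb), to a region 1.05 kb before the start, with 6 reads. The super-enhancer also covers the start of another gene, Apobec3 (chr15:79722837-79738859, mm9), an antiviral cytidine deaminase. Apobec3 had 109.9 and 73.0 FPKM in aB cells, against 180.4 and 141.3 FPKM in rB cells, a change of -0.83 (limma adjusted p = 0.0369). The transcript D730005E14Rik, which overlaps the start of Apobec3 and cannot be told from it without strand, changed by -1.73 (limma adjusted p = 0.000241) and Sun2, a nuclear envelope gene in contact at 188.0 kb, by -1.34. Of the other partners Gcat, in contact at 901.0 kb with 9 reads, rose (2.45). Gcat was under 1 FPKM in both rB samples and passed the filter only through the aB samples, which fixed its direction. Ep300, which encodes an acetyltransferase, fell (-0.44). Its contact, at 1650 kb with 5 reads, lay inside Cbx7 and not at the Cbx7 start. Gtpbp1 (0.07), Nol12 (0.09) and Gm16576 (-0.22) did not pass. The anchor at Sun2 also held the start of Gm16576. Another contact from inside Cbx7, at 97.8 kb with 5 reads, had its far anchor just outside the locus of Cbx6. That anchor began at chr15:79664784 (mm9), and the Cbx6 locus ended at 79664763. Without rB replicate 1 or 2 the calls of Apobec3 (0.207 and 0.0694) and Ep300 (0.194 and 0.201) were lost, that of Apobec3 also without aB replicate 2 (0.132) and that of Ep300 without aB replicate 1 (0.0984).

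**Figure D5:**
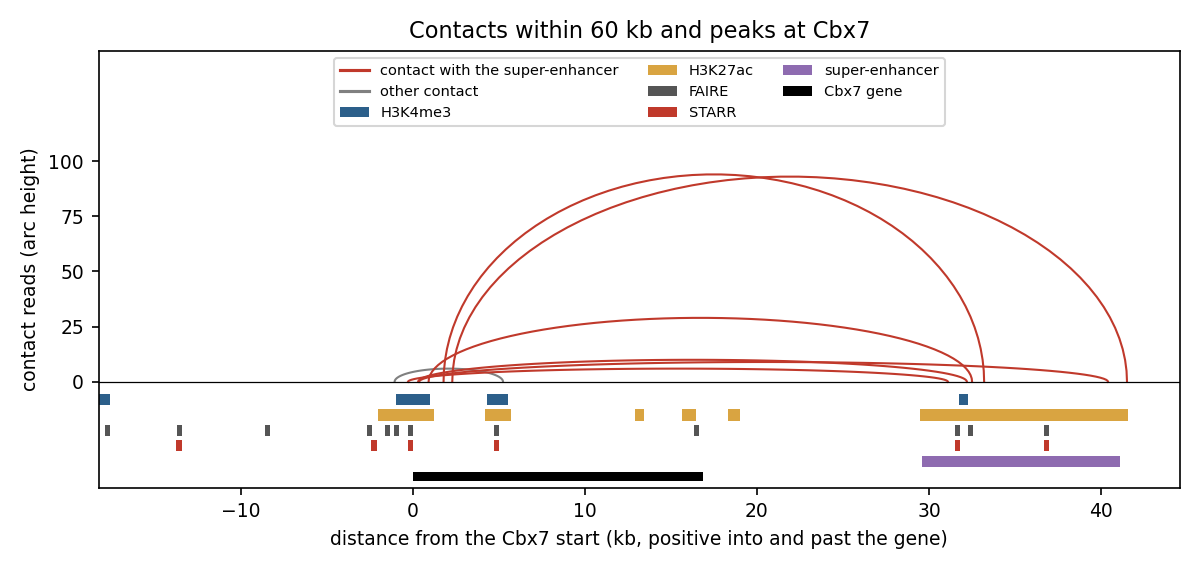
Hi-C contacts of Cbx7 within 60 kb in activated cells (arcs, height in contact reads, the contact with overlapping anchors left out) above the peaks, the super-enhancer and the gene, by distance from the Cbx7 start in kb. The 6 red arcs, of 6 to 94 reads, end on the super-enhancer, and the grey arc lies at the gene itself.

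Ezh2 had contacts with 1 region only, at 26.4 to 26.8 kb before its start, with up to 25 reads. That region held FAIRE, STARR and H3K27ac peaks and no start of another gene. Ezh1 contacted the starts of Vat1 at 240.0 kb and Klhl11 at 753.0 kb and a region 74.9 kb before its start, with at most 9 reads. Vat1 (-0.03) and Klhl11 (-0.23) did not pass.

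The start of Phf19 contacted its own internal STARR and H3K27ac region, at 8.48 and 8.53 kb, with 6 and 8 reads. Phf19 also contacted the start of Traf1, a signalling adaptor, at 47.0 to 49.0 kb with up to 69 reads. Traf1 rose together with Phf19, with 54.0 and 41.5 FPKM in aB cells, against 19.3 and 16.6 FPKM in rB cells (change 1.36, limma adjusted p = 0.00152). A region 63.1 kb before the Phf19 start, with FAIRE, STARR and H3K27ac peaks and no gene start, gave 49 reads. Of the other partners Edf1 rose (0.71), Pnpla7 fell (-1.23), and Rab14 (-0.23) and Mrpl41 (0.14) did not pass. The contacts with Edf1 (9350 kb) and with Pnpla7 and Mrpl41 (9940 kb) had 5 reads each. They lay inside Phf19 and not at its start. The contact with Rab14, at 287.0 kb, had 5 reads too. Without rB replicate 1 or 2 the Edf1 call was lost (0.1 and 0.115).

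Eed contacted an anchor 151.0 kb away, with up to 43 reads. It held the starts of Picalm, a clathrin assembly gene, and 2310010J17Rik, so the contact cannot be assigned to Picalm alone. Picalm fell (-0.80), a call lost without rB replicate 2 (0.0805), while Eed did not pass. The Eed contacts at 463.0 to 496.0 kb reached the starts of Crebzf (-0.41, not passing), Tmem126a (0.92, higher) and Tmem126b (-0.12, not passing), and Tmem126a lost its call without rB replicate 1 (0.0614). 2310010J17Rik (-0.79) and the other partners, Pcf11 (-0.43) and 4632427E13Rik (-0.13), did not pass. The contacts with Pcf11 (2690 kb) and 4632427E13Rik (2760 kb) had 5 reads each. Ring1 lies in the major histocompatibility region, and its contacts reached the starts of 10 genes, with up to 37 reads. A contact of 37 reads reached H2-Ke6, only 2.89 kb away. Another of 37 reads, with H2-Ke2 and Wdr46, came from an anchor that also held the H2-Ke6 start. It cannot be assigned to Ring1 alone. Contacts with the starts of the other genes had at most 8 reads. H2-Eb2 (-2.16), H2-Ke6 (-1.32), Abhd16a (-1.05) and BC051226 (-0.995) fell, as Ring1 did. H2-Ke2 (1.04), Wdr46 (0.87) and 1110038B12Rik (2.22) rose, and Daxx (0.30), Psmb9 (0.69) and Ddah2 (0.42) did not pass. Without rB replicate 2 the calls of BC051226 (0.0772) and Wdr46 (0.0675) were lost. The contacts of Cbx8 were all at 1020 kb or more and had at most 6 reads. Their partner genes Socs3 (1.28), an inhibitor of cytokine signalling, and Mafg (1.01) rose, and Sec14l1 (0.42) did not pass. Rnf2 had contacts at 1110 and 1320 kb, the nearer of them with the start of Tpr, which did not pass (0.55).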

How the data were processed

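RNA-seq of 2 aB and 2 rB samples was analysed from a table of 23812 gene rows that the authors deposited. Neither header nor labels name the unit; the authors' values were taken to be FPKM because they are not whole and their sums differ. Depth and strand are unknown, and reads from genes that overlap, in either sense, are not separable. The submitters' processing notes name TopHat2, STAR, Bowtie, Bowtie2, HOMER, bedtools and mm9, with no role or version. The authors deposited 1 list of peaks per assay with starts and ends alone, and a Hi-C list. Per the file headers, each contact has a read count, pooled over samples, and a z-score as its score. The 32142 deposited rows gave 27903 distinct contacts, with a median of 7 reads. Neither the count nor the score was used to filter.

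The fit took the 10863 genes that reached 1 FPKM in 2 or more samples and used limma 3.58.1 in R 4.3.3 on log2(FPKM + 1) with trend and robust variance, and Benjamini-Hochberg adjustment over all of them. The fit was tested on simulated data. No replicate block was used. Gene starts came from the table's loci, with strands from RefSeq (8745 tested genes matched by symbol or a unique synonym), and a peak was counted within 1 kb of a start. Motifs and GC were read from RefSeq promoters (GRCm38.p6). The genes named were all 10 Polycomb genes, up to 5 called genes per direction from each related list, the 3 nearest in pattern to Ezh2 and to Ezh1, and Hi-C partners where at most 10. A few genes that did not pass, and Cbx6 as a paralog, are given beside them by choice after their values were seen. The 4 genes of the Cbx share were set after the data were seen, and part of the planned result is not reported here. The Polycomb genes and the lists were chosen with earlier results of these data known. The alternatives tried were other pseudocounts, filters, scalings, a replicate block, plain limma and each sample left out. H3K4me1, nascent RNA and resting ChIP-seq were not analysed here.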

Additional observations from a re-analysis of the deposited data

How the results depend on the processing

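Over 130 pairs of a Polycomb gene and an alternative setting, 116 kept their direction and their side of the threshold, 11 lost and 3 gained a call, and none reversed. With no filter on low values 297 of 23812 rows were called (64 higher, 233 lower) and 0 Polycomb genes in either direction by limma (3 higher and 4 lower at an unadjusted p under 0.05), against 5910 calls (3066 higher, 2844 lower) with the filter. That fit held 7128 rows at 0 in every sample; without those rows, a setting chosen after seeing the data, 5892 were called and the same 7 Polycomb genes as with the filter. Leaving out 1 sample gave 2964 to 5693 calls (1735 to 2859 higher, 1191 to 2834 lower), 3 Polycomb genes higher each time, and 2 to 4 lower. The lowest counts of calls came without rB replicate 1 (2964) or rB replicate 2 (3324), and then Ezh1 and Cbx7 were the Polycomb genes called lower. A group left with 1 sample was assumed to vary like the other. Without 1 sample the log2 Ezh2 to Ezh1 difference ranged over 3.95 to 4.46 and the Cbx7 share difference over -30.3 to -29.9 points. With a pseudocount of 0.1 or none the Ezh2 to Ezh1 difference was 4.50 or 4.53. Taken over Cbx7 and Cbx8 alone, the Cbx7 share differed by -9.23 points, against -30.1 over 4 genes. A replicate block gave 3317 higher and 2964 lower calls and the same Polycomb calls. The labels do not say that equal replicate numbers mark paired samples, and deviations of same-numbered samples correlated at 0.124 across 10863 genes with only 2 pairs. Peak windows of 500 bp or 2 kb moved the STARR count only, to 4 at 500 bp; the Polycomb genes with contacts numbered 10 within 5 kb of a start and 7 among contacts with at least the median number of reads. Reversals were seen in 9 genes that did not pass. Quantile normalization gave 0.166 for 4632427E13Rik, -0.0865 for Gtpbp1 and 0.0676 for Hoxb4. Without 1 sample the ranges were -0.0138 to 0.152 for Gtpbp1, -0.2 to 0.0237 for Hoxb4, -0.335 to 0.0142 for Kdm6a, -0.564 to 0.112 for Klhl11, -0.0905 to 0.377 for Mrpl41, -0.0201 to 0.405 for Mtf2, -0.315 to 0.0746 for Tmem126b, -0.187 to 0.13 for Vat1 and -0.336 to 0.0316 for 4632427E13Rik. FPKM carry no depth, so the counting error of low genes such as Phf19 in rB cells is unknown.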
